A study of Mus musculus with 12 samples.

Results

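The genes described here encode receptors and enzymes of adenosine, prostaglandin and cyclic AMP (cAMP) signaling. They are the adenosine receptors Adora2a and Adora2b, the prostaglandin synthase Ptgs2, the prostaglandin E2 receptors Ptger2 and Ptger4, the phosphodiesterases Pde4a and Pde4b, and the cAMP-responsive transcription factor Crem. All 8 were chosen by name for their roles in this pathway, with the signals and log FC of these arrays already known from an earlier analysis. The platform's probe table gave 15 probes for 6 of them, and the remaining 2, Adora2a and Adora2b, were each matched to 1 probe through the study's own gene list alone, so their identity rests on that list. Together these were 17 of the 25697 probes on the array, which named 16838 genes. The values below are therefore descriptions of genes picked with results in view, and their p-values are not independent evidence.

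BMDM are macrophages grown from bone marrow with the growth factor M-CSF (20 ng/mL), here from Balb/c mice whose age is not given in the labels. They were kept without M-CSF before treatment and then treated for 1 h in 4 groups of 3 arrays each. Untreated cells received no agent, and the other groups received hBD3, LPS, or LPS together with hBD3. LPS is a bacterial cell wall component that activates the receptor TLR4 and was used at 50 ng/mL, and hBD3 (human β-defensin 3) is an antimicrobial peptide used at 5 μg/mL in the study's methods, where the label reads 5 mg/mL. The combination's label gives no dose. The design note assigns 3 separate mice to each treatment, the labels number the arrays 1 to 3 in every group, and neither states whether a number stands for the same mouse in all groups. The p-values measure only the spread between these arrays.

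Adenosine acting on A2 receptors and prostaglandin E2 acting on EP2 (Ptger2) and EP4 (Ptger4) activate the stimulatory G protein, which raises cAMP. cAMP activates protein kinase A and through it transcription factors of the CREB family, and phosphodiesterases of the PDE4 family break cAMP down. In macrophages this pathway is known for restraining the production of inflammatory cytokines and for raising IL-10, and LPS is known to induce several of its genes, Ptgs2 among them.

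Signals are quantile normalized and given on the log2 scale, and a probe counted as detected on an array when its detection p-value, which the scanner software derives from negative control probes, was under 0.01. Between 8958 and 9923 probes were detected per array, the fewest on LPS replicate 1, which also correlated least with the other arrays of its group (mean r of 0.967, against 0.979 and 0.983 for the other LPS arrays). All 6 measured macrophage markers, Csf1r not among them, were detected on all 12 arrays. No measured marker of mast cells, dendritic cells, lymphocytes or erythroid cells was detected on any array. Of 6 neutrophil markers S100a8 alone was detected, on all 12 arrays with a mean log2 signal of 7.95, and of the stromal and endothelial markers Col1a1 alone was, on 6 arrays. In total RNA of a culture, fewer cells of a type and less RNA per cell cannot be told apart.

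Of the 8 genes, 3 were detected on at least 3 arrays: Adora2b on all 12, Crem by 3 of its 5 probes, and Pde4a by 1 of its 4 probes. Their signals are shown with those of all other probes in the plot by gene and probe. Without the replicate number in the fit, 0 of the 17 probes passed an adjusted p of 0.05 in limma in any comparison. Of all probes 0.105% passed between LPS and untreated BMDM, and 0.0545% between LPS plus hBD3 and LPS. At an unadjusted p under 0.05 the 17 probes gave 2 in each of these comparisons, beside 3.23% and 3.7% of all probes. Between LPS and untreated BMDM these were the probe of Adora2b and the detected one of Pde4a. Between LPS plus hBD3 and LPS they were that of Pde4a and the undetected probe of Pde4b. With the replicate number as a block, which compares only arrays of the same number, 1 probe passed in each, that of Adora2b, beside 0.28% and 0.163% of all probes.

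**Figure D1:**
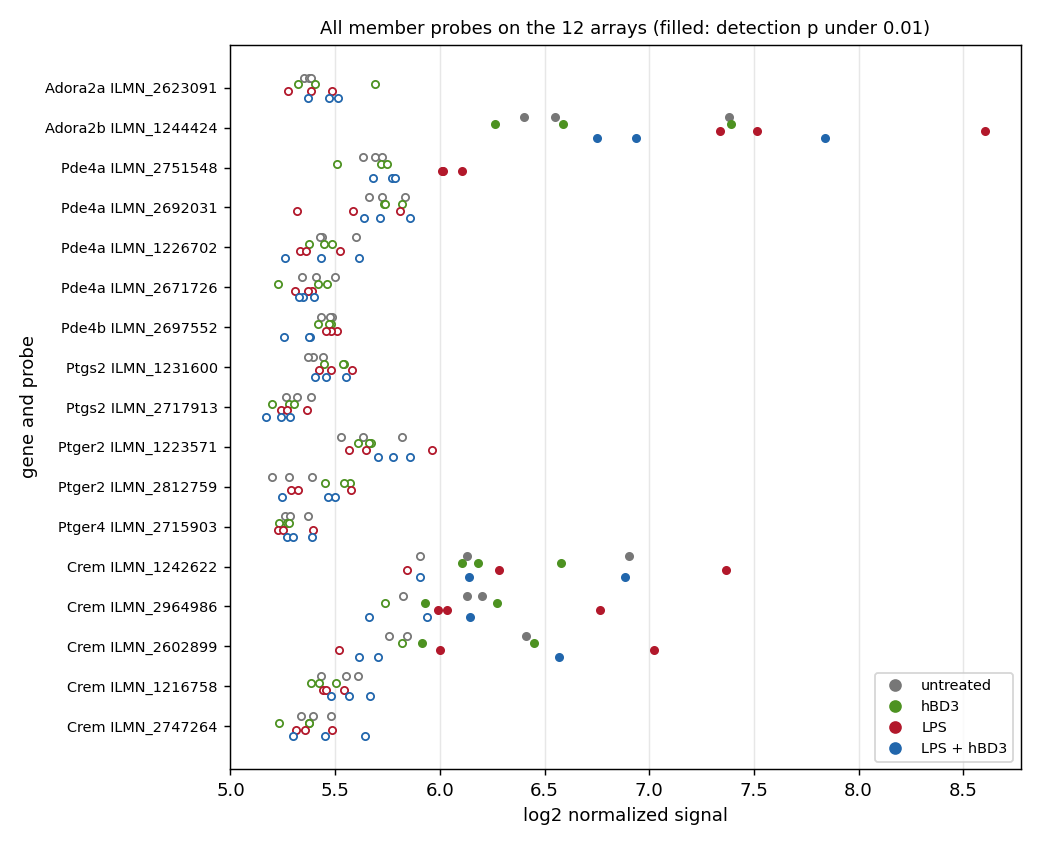
Normalized log2 signal (x axis) of the 17 probes (y axis, gene and probe ID) on the 12 arrays, 1 point per array, coloured by group; filled points were detected and open points were not. The Adora2b probe is detected on all arrays and reaches 8.60, while the probes of Adora2a, Pde4b, Ptgs2, Ptger2 and Ptger4 have open points throughout, the brightest at 5.96.

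Adora2b encodes the adenosine receptor with the lowest affinity of its family, coupled to the stimulatory G protein. Its signal was higher with LPS and lower again with LPS plus hBD3 in each of the 3 replicate numbers. The bases before its transcription start are shown because it is the gene on which the comparisons below turn. They are from RefSeq (GRCm38.p6, plus strand, chr11:62248734-62248983), written 5′ to 3′ and ending at the base before the start. Capitals mark matches, on either strand, to the GC box GGGCGG and the CCAAT box.

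Adora2b: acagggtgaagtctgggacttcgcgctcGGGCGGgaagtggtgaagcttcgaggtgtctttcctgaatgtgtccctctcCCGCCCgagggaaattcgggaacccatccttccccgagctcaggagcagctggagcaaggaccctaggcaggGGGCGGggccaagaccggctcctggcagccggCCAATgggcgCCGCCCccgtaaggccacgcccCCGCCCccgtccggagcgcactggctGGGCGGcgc

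The window was 69.6% G or C and held 6 GC boxes, and 6 or more were found in 0.886% of the 32851 promoter windows of this length. It also held 1 CCAAT box, a motif found in 33.8% of the windows. The core of the cAMP response element, searched on both strands as TGACG, was not in this window and was found in 17.8% of the windows. An AP-1 site, searched in the same way as TGANTCA, was likewise missing here and was found in 6.75%.

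In untreated BMDM the log2 signal of Adora2b (probe ILMN_1244424) was 7.38, 6.40 and 6.55 in replicates 1, 2 and 3. With LPS it was 8.60, 7.34 and 7.52, and with LPS plus hBD3 it was 7.84, 6.75 and 6.94. With hBD3 alone it was 7.39, 6.26 and 6.59. Replicate 1 was the highest array in all 4 groups and the groups therefore overlapped, but within each replicate number the LPS array was the highest of the 4. Before normalization and on the linear scale, the untreated arrays read 74.97 to 210.88 and the LPS arrays 143.82 to 518.72.

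The mean Adora2b signal rose from 6.78 ± 0.53 (SD, n = 3) in untreated BMDM to 7.82 ± 0.68 (SD, n = 3) with LPS, a difference of 1.04 (2.06-fold). Within replicates 1, 2 and 3 the difference was 1.22, 0.94 and 0.96. With the block its SE was 0.07 and its 95% interval 0.88 to 1.20 (adjusted p = 4.04e-05, limma), and without the block its SE was 0.42 and its interval 0.11 to 1.97 (adjusted p = 0.9997). The estimate was the same in both fits, of which only that with the block made the call.

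LPS plus hBD3 left the Adora2b signal at 7.17 ± 0.58 (SD, n = 3), 0.64 below LPS alone on the log2 scale (1.56-fold lower). Within replicates 1, 2 and 3 the signal fell by 0.76, 0.59 and 0.58. The adjusted p was 0.00348 with the block, where the 95% interval ran from -0.80 to -0.49, and 0.999982 without it, where it ran from -1.57 to 0.29 (limma). This comparison and the preceding one share the 3 LPS arrays and are not independent of each other.

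Against untreated BMDM, Adora2b with LPS plus hBD3 was 0.40 higher (95% interval with the block 0.24 to 0.56, adjusted p = 0.476, limma). The LPS arrays do not enter this difference of means, but they share in the normalization and in the estimate of the spread. That comparison did not pass in either fit, and neither did any other of the 17 probes in it. Of all probes 0% passed without the block and 0.00778% with it. At an unadjusted p under 0.05 without the block there was 1 of the 17, the undetected Pde4b probe, beside 2.47% of all probes. With the block there was 1, that of Adora2b, beside 3.28%. With hBD3 alone the mean of 6.75 ± 0.58 (SD, n = 3) was 0.03 below that of untreated BMDM, with an interval of -0.19 to 0.13 in the blocked fit. In hBD3 against untreated 0 of the 17 probes and 0% of all probes passed in either fit. At an unadjusted p under 0.05 there was 1 of the 17 in either fit, an undetected probe of Ptger2. The shares of all probes were 2.39% without the block and 3.94% with it. The effect of hBD3 on Adora2b with LPS differed from that without it by -0.61 (95% interval with the block -0.84 to -0.39), which did not pass after adjustment (adjusted p = 0.0932 with the block and 0.999707 without). For this difference of effects 0% of all probes passed without the block and 0.0778% with it. At an unadjusted p under 0.05 without the block there was 1 of the 17, the Pde4a probe ILMN_2751548, beside 2.56% of all probes. With the block there were 2, that probe and that of Adora2b, beside 3.9%. In the order of the group means LPS came first, followed by LPS plus hBD3, untreated and hBD3, and among neighbours in that order only LPS and LPS plus hBD3 were apart by the blocked test.

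**Figure D2:**
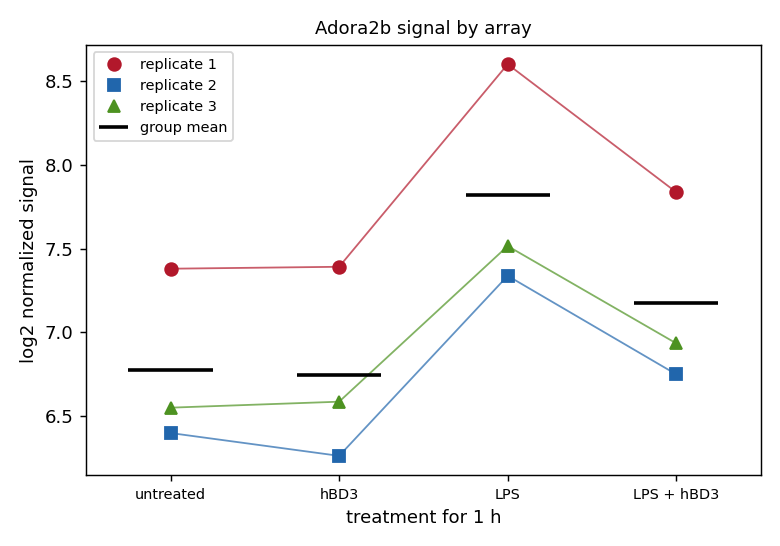
Normalized log2 signal of Adora2b (y axis) in the 4 groups after 1 h (x axis), with 1 point per array, lines joining arrays of the same replicate number and black bars for the group means of 3 arrays. The 3 lines run nearly parallel: each peaks at LPS (8.60, 7.34 and 7.52), and the replicate 1 line lies above the others throughout.

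Over all groups the replicate 1 arrays averaged 7.80 for Adora2b and the other arrays 6.79. In limma's F test for the replicate number, added after the values were seen, Adora2b had an adjusted p of 6.19e-06, and 10.6% of all probes passed the same test. When replicates 2 and 3 were fitted alone, without a block, Adora2b was 0.91 higher with LPS than in untreated BMDM (adjusted p = 0.0152), and its log FC for LPS plus hBD3 against LPS was -0.56 (adjusted p = 0.339). Without LPS replicate 1, the blocked differences were 0.95 (adjusted p = 1.13e-05) and -0.56 (adjusted p = 0.00277), and those without the block were 0.64 (adjusted p = 0.99956) and -0.25 (adjusted p = 0.999935).

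Adora2a encodes the other A2 receptor, which binds adenosine with higher affinity. Its probe was not detected on any array, with a lowest detection p of 0.0852 and signals between 5.28 and 5.69. The 95% interval of its difference between LPS and untreated BMDM was -0.19 to 0.22, but a signal at background bounds the probe and not the transcript. A level of Adora2a below what this probe can register was not measurable here.

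Ptgs2 encodes cyclooxygenase-2, the inducible enzyme that makes the precursor of prostaglandins. Neither of its probes was detected on any array: the brighter one read 5.40, 5.44 and 5.37 in untreated BMDM and 5.48, 5.58 and 5.42 with LPS, and its lowest detection p over the 12 arrays was 0.188. The other lay between 5.17 and 5.38. No LPS response of Ptgs2 was measurable with these probes at 1 h.

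The receptors for prostaglandin E2 were also not well above background. Of the Ptger2 (EP2) probes, the brighter one reached 5.96 on LPS replicate 1 and had a detection p under 0.05 on 3 arrays, 1 each of untreated, LPS and LPS plus hBD3, but under 0.01 on none. The other Ptger2 probe lay between 5.20 and 5.58 and was not detected on any array. It read 0.23 higher with hBD3 than in untreated BMDM, which did not pass after adjustment (limma, adjusted p = 0.999949 without the block). The single Ptger4 (EP4) probe stayed between 5.23 and 5.39 with a lowest detection p of 0.599. Neither receptor gene gave a signal from which a direction could be read.

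PDE4 enzymes hydrolyse cAMP, and Pde4a was the only one of the listed pair to be detected. Its probe ILMN_2751548, which the platform table assigns to a transcript of its own, was detected on all 3 LPS arrays and on none of the other 9, a pattern shared by 3 of all 25697 probes (0.0117%). The signals with LPS were 6.11, 6.01 and 6.02, against 5.69, 5.64 and 5.72 in untreated BMDM. With LPS plus hBD3 they were 5.77, 5.78 and 5.68, and with hBD3 5.72, 5.51 and 5.75. All LPS arrays lay above all other arrays, and all other arrays were at background. At a detection p under 0.05 this probe was detected on 1 hBD3 array as well, and Pde4a by any of its probes on 6 arrays from all 4 groups.

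The mean of Pde4a with LPS, 6.04 ± 0.05 (SD, n = 3), was 0.36 above that of untreated BMDM and 0.30 above that with LPS plus hBD3 on the log2 scale. The 95% intervals were 0.20 to 0.52 for LPS against untreated BMDM and -0.46 to -0.14 for LPS plus hBD3 against LPS. Neither difference passed after adjustment over all probes (limma, adjusted p = 0.206 and 0.853 without the block, 0.115 and 0.417 with it). Since the dimmer groups were at background, the folds are bounds, set by the dimmest detected probe of each array where that was brighter: at least 1.08-fold higher with LPS than in untreated BMDM and at least 1.03-fold higher than with LPS plus hBD3. LPS arrays that all lay above those of untreated BMDM were seen for 4.34% of all probes, and LPS plus hBD3 arrays that all lay below those of LPS for 4.39%.

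With limma's neqc background correction, which subtracts an estimated background, the difference between LPS and untreated BMDM was 0.64. It passed without the block (adjusted p = 0.0422) and with it (adjusted p = 0.0394). When only probes detected on at least 3 arrays were fitted, without neqc or the block, the limma adjusted p was 0.617. The other 3 probes of Pde4a, all assigned to another transcript, were not detected on any array, and their differences between LPS and untreated BMDM ran from -0.17 to -0.06. At background, these differences say nothing of that transcript.

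RefSeq gives 3 promoter windows for Pde4a on chromosome 9, and which of them belongs to the detected probe's transcript was not established here. The window at chr9:21183851-21184100 (GRCm38.p6, plus strand) is shown because it was the only one of the 3 with the core letters of the cAMP response element. Those letters were found in 17.8% of the 32851 promoter windows of this length, and a link to the Pde4a signal was not tested. Capitals mark matches to GGGCGG and TGACG, both here as their reverse complements.

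Pde4a: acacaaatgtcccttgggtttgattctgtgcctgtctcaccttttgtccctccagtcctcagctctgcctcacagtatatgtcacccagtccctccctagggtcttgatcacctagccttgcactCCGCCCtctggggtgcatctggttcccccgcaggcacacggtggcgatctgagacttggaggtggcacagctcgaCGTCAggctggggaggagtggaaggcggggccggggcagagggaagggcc

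The probe of Pde4b, the PDE4 gene most often described as induced by LPS in monocytes and macrophages, was not detected on any array. It read 5.49, 5.48 and 5.43 in untreated BMDM and 5.51, 5.48 and 5.46 with LPS. With LPS plus hBD3 it read 5.26, 5.38 and 5.38, and its lowest detection p over all arrays was 0.363. Of the 4 RefSeq windows of Pde4b, 1 held the letters TGACG, beside 17.8% of all promoter windows.

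**Figure D3:**
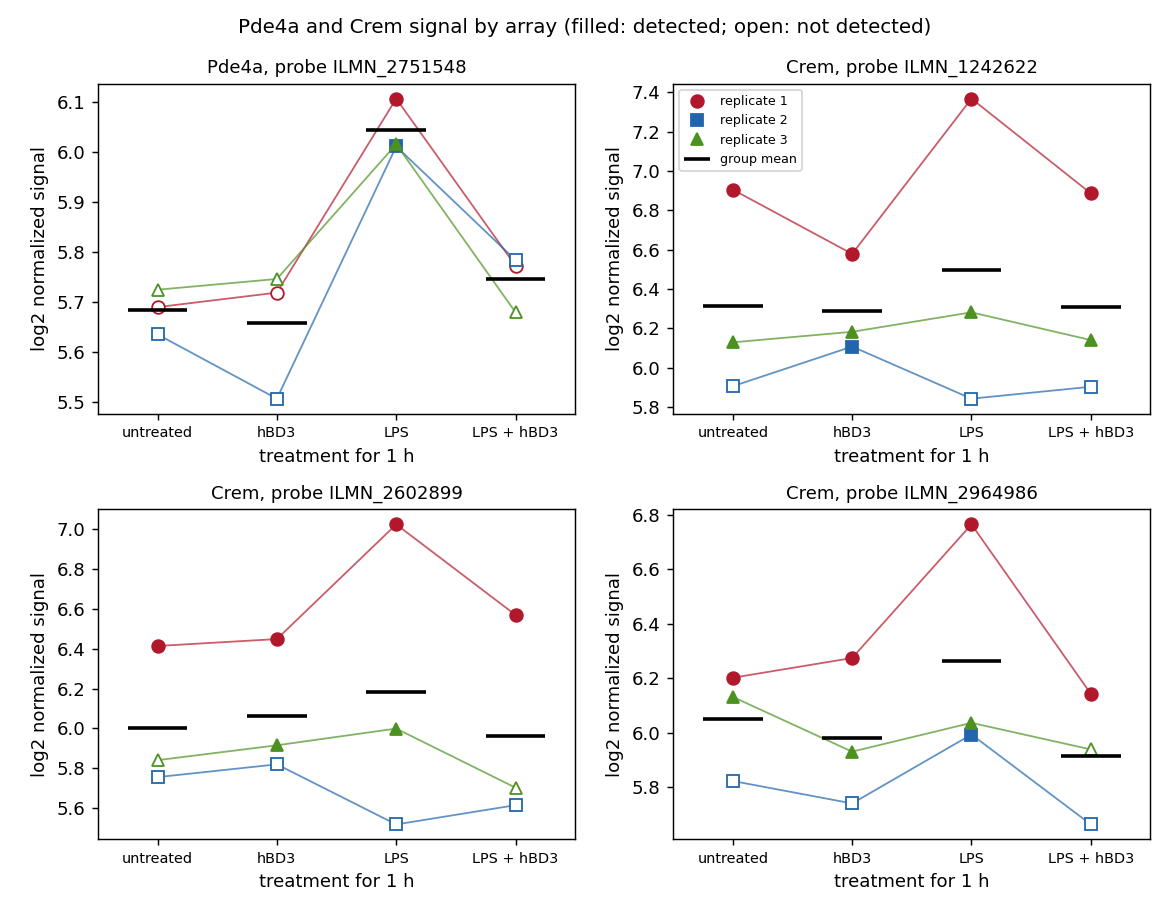
Normalized log2 signal (y axis, a separate scale in each panel) of the detected probe of Pde4a and the 3 detected probes of Crem in the 4 groups after 1 h (x axis), with filled points for detected and open points for undetected arrays, lines joining arrays of one replicate number and black bars for the means of 3 arrays. Pde4a is filled at LPS alone, and in the Crem panels the replicate 1 line lies above the other 2 in every group.

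Crem encodes activators and repressors of cAMP-responsive genes, among them the early repressor ICER. Its brightest probe (ILMN_1242622) read 6.91, 5.91 and 6.13 in untreated BMDM, 7.37, 5.84 and 6.28 with LPS, and 6.89, 5.90 and 6.14 with LPS plus hBD3. With hBD3 alone it read 6.58, 6.11 and 6.18. The replicate 1 array was the highest in every group, and the treatment groups overlapped in every comparison.

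The difference between LPS and untreated BMDM was 0.18 for this probe, with a 95% interval of -0.14 to 0.51 with the block and -0.68 to 1.05 without it. For the other detected probes the difference was 0.21 and 0.18, and none of the 3 passed in either fit. Within replicate 1 the LPS array was the brightest of the 4 for all 3 probes, whereas within replicate 2 it was the dimmest for 2 of them. Without LPS replicate 1 the difference for the brightest probe was -0.25 without the block and -0.01 with it.

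In LPS plus hBD3 against LPS the 3 Crem probes differed by -0.19, -0.35 and -0.22. The probe ILMN_2964986 had the largest of these, with an interval of -0.58 to -0.12 in the blocked fit, and it did not pass after adjustment (adjusted p = 0.714, limma). Its LPS arrays read 6.77, 5.99 and 6.04 and its LPS plus hBD3 arrays 6.14, 5.66 and 5.94, so that each replicate was lower with hBD3 although the groups overlapped. The remaining 2 Crem probes were not detected on any array.

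What the 3 detected Crem probes shared was the replicate number. For each of them all 4 replicate 1 arrays lay above the other 8 arrays, as they did for 4.32% of all probes and 9.89% of the 10123 probes that were detected on 3 arrays or more. The mean of replicate 1 exceeded that of the other arrays by 0.87, 0.44 and 0.84, with adjusted p-values of 0.0012, 0.00753 and 0.00121 in the F test for the replicate number. For Adora2b the same difference was 1.01. The summed linear signal of the 6 macrophage markers was also highest in replicate 1 of every group (21397 in untreated replicate 1 against 18020 and 18597 in replicates 2 and 3). The 6 did not share a direction: over all groups, replicate 1 minus the mean of the other arrays was 1.13 for Fcgr1, 0.87 for Mertk and 0.42 for Cd14 on the log2 scale, and -0.33 for Cd68, -0.14 for Itgam and -0.13 for Adgre1. The summed neutrophil list was highest in replicate 1 of every group too, at 505.8 in untreated replicate 1 and 398 to 483 in the others. That sum followed S100a8 alone, for which replicate 1 was 0.48 higher on the log2 scale. The other neutrophil markers, undetected on all arrays, differed by -0.01 to 0.05. The part of the macrophage or the neutrophil list in the Adora2b and Crem signals was not tested.

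**Figure D4:**
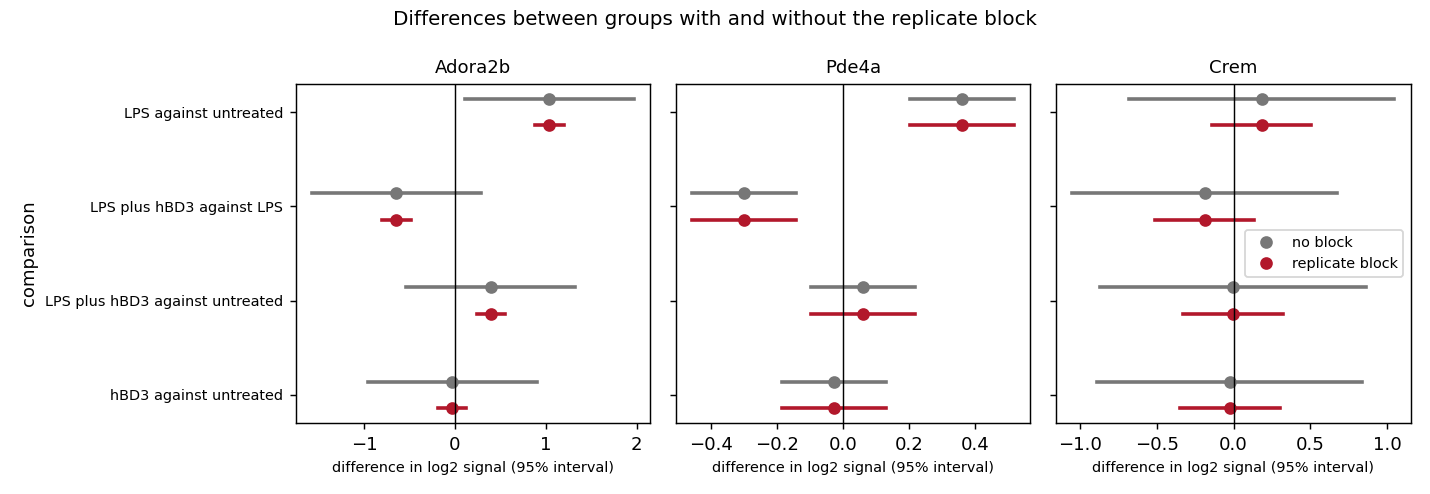
Difference in log2 signal (x axis, a separate scale in each panel) for the representative probes of Adora2b, Pde4a and Crem in 4 comparisons (y axis), as points with 95% intervals, grey without and red with the replicate block. The block narrows the Adora2b interval for LPS against untreated from 0.11 to 1.97 down to 0.88 to 1.20, leaves that of Pde4a as it was and leaves every Crem interval across 0.

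Over all 12 undetected probes of 7 genes, the differences ran from -0.17 to 0.11 between LPS and untreated BMDM and from -0.14 to 0.17 between LPS plus hBD3 and LPS. The median over the representative probes of the 8 genes was 0.08 and -0.08 in these comparisons, beside 0.01 and -0.005 over all probes. With 5 of the 8 at background, these medians describe mostly probes without a measurable level.

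Across the 12 arrays, the genes whose signal followed that of Adora2b most closely among 6783 were Cdr2, Relb (an NF-κB subunit) and Ube2e2, each with a Pearson r of 0.95. Between LPS and untreated BMDM these genes differed by 0.24, 0.40 and 0.24, and none of them passed in either fit. For Pde4a the closest were Ppp1r15a and Phlda1 (r of 0.90 for both) and Mfsd7a (0.89). Ppp1r15a, a regulatory subunit of a protein phosphatase, and Phlda1 rose with LPS by 1.14 and 2.21 on the log2 scale (adjusted p = 0.000116 and 7.45e-05 without the block). Mfsd7a differed by 0.23 with LPS and did not pass in either fit. For Crem the closest were Entpd5, Tmem50b and Aifm2 (0.97, 0.96 and 0.96), which did not pass in either fit. The arrays share treatments and replicate numbers, so these values describe likeness only. The Pde4a probe was detected on the LPS arrays alone, so its ranking favours genes that were higher with LPS.

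The other genes of these pathways were taken from lists of 88 genes, of which 80 were measured and 39 detected on all arrays of at least 1 group. None rose or fell past the threshold in any of the 5 comparisons, with or without the block. At an unadjusted p under 0.05 there were 6 of 80 between LPS and untreated BMDM (7 with the block) and 4 of 80 between LPS plus hBD3 and LPS (8 with the block), and 2 to 4 in each of the other comparisons in either fit. The shares over all probes in the former 2 comparisons were 3.23% and 3.7% without the block and 5.75% and 5.76% with it. In the other comparisons they were 2.39% to 2.56% without the block and 3.28% to 3.94% with it. The median difference of the 80 genes was -0.01 with LPS and 0.004 for LPS plus hBD3 against LPS.

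Among genes of adenosine handling, 8 of 9 were measured and 5 detected. Between LPS and untreated BMDM the deaminase Ada differed by -0.32 (SE 0.30) and the kinase Adk by 0.13 (SE 0.12). The SEs here and in the lists below are from the fit without the block. In LPS plus hBD3 against LPS, Ada differed by 0.22 and Adk by -0.11. Of 18 measured prostaglandin genes 8 were detected. With LPS, the constitutive cyclooxygenase Ptgs1 differed from untreated BMDM by -0.41 (SE 0.16). The prostaglandin D synthase Hpgds differed by -0.32 (SE 0.29) and the prostaglandin E synthase Ptges2 by 0.11 (SE 0.12). In LPS plus hBD3 against LPS, Hpgds differed by 0.25 and Ptges2 by -0.14. In contrast to the probes of Ptgs2, that of Ptgs1 was detected on 10 arrays, and its means ran from 6.05 with LPS to 6.51 with hBD3.

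In cAMP synthesis and breakdown 8 of 22 measured genes were detected. The adenylyl cyclase Adcy7 differed by -0.54 (SE 0.35) and the phosphodiesterase Pde7b by 0.06 (SE 0.13) with LPS. The stimulatory G protein subunit Gnas differed by -1.11, but its signal on LPS replicate 1 was 6.04 and undetected, against 8.83 and 9.32 on the other LPS arrays and 8.72 to 9.51 on the other groups' arrays. Without that array the Gnas difference was -0.10 and that of Adcy7 -0.11. The representative probe of Gnas was thus undetected on 1 array, and the other LPS arrays lay within the range of the other groups. Within replicate 1 it also read lower with LPS plus hBD3 (8.72) than in untreated BMDM (9.38) or with hBD3 (9.28). Another Gnas probe was also undetected on LPS replicate 1, at 5.60 against 7.39 and 7.96 on the other LPS arrays. Its difference between LPS and untreated BMDM was -0.78, and -0.08 without that array. The remaining Gnas probes were not detected on any array. In LPS plus hBD3 against LPS, which also uses the low array, Gnas differed by 0.88, and Pde7b differed by -0.29.

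Of 15 measured genes of protein kinase A and Epac signaling 11 were detected. With LPS the catalytic subunits Prkaca and Prkacb differed by -0.25 (SE 0.14) and -0.34 (SE 0.15), and the anchoring protein Akap10 by 0.13 (SE 0.31). In LPS plus hBD3 against LPS, Prkaca differed by 0.28 and Akap10 by -0.25. In the CREB family and its coactivators 6 of 9 were detected. With LPS the acetyltransferase Ep300 differed by -0.35 (SE 0.22), Creb3 by 0.20 (SE 0.12) and the coactivator Crtc3 by 0.08 (SE 0.13). In LPS plus hBD3 against LPS, Crtc3 differed by -0.12 and Creb3 by -0.08. None of the 6 named in these lists passed in either fit.

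Of 8 early genes known to respond to cAMP, Per1 was the only one detected on all arrays of a group, and it differed by -0.06 with LPS. The probes of Nr4a1, Nr4a2, Nr4a3 and Sik1, classical targets of CREB, were not detected on any array. Areg, which encodes the growth factor amphiregulin and was singled out after its values were seen, had the lowest adjusted p of the lists. Its mean was 5.58 in untreated BMDM, 6.02 with LPS and 5.56 with LPS plus hBD3 (adjusted p for LPS against untreated 0.222, with the block 0.138), and it was detected on 1 array. The probe of Il10, also detected on 1 array, had means of 5.53, 6.08 and 5.54 in the same groups, differences of 0.54 and -0.54 that did not pass (adjusted p for LPS against untreated 0.999729, with the block 0.615).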

How the data were processed

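RNA of 12 BMDM cultures had been hybridised to Illumina MouseRef-8 arrays. One file the authors deposited holds linear signal intensities per probe, summarized in BeadStudio and not normalized, and, per the file headers, BeadStudio's detection p-values. A second holds intensities that the authors quantile normalized. Limma is the tool named in the submitters' processing notes, where its version is not given.

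The signals were quantile normalized over the 12 arrays, log2 transformed and fitted with limma 3.58.1 in R 4.3.3, with a mean for each of the 4 groups, no background correction and no filter. P-values were adjusted by the Benjamini-Hochberg method over all 25697 probes of a comparison, at a threshold of 0.05. Errors of signals are SD over 3 arrays. The number of arrays limits the precision. Each gene was represented by its probe with the highest mean signal. The platform table named 23978 probes, and the study's gene list a further 293 (names only). 1426 were unnamed.

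The members, the wider lists and the tests were chosen with earlier results of these data known. The text names all members, genes of the wider lists past the threshold, the 2 detected genes per list that differed most by absolute log FC between LPS and untreated BMDM, the 2 that did so between LPS plus hBD3 and LPS, and the 3 genes most like each of 3 members. The other genes, markers and undetected list genes that appear were named after their values were seen.

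The replicate number was added as a block in a second fit. Deviations from the group means of arrays with the same number correlated at 0.0726 to 0.662 over 18 pairs of arrays (0.0726 to 0.368 between LPS and untreated, 0.384 to 0.662 between LPS plus hBD3 and LPS), and each of the 12 arrays correlated best with its own number. The lowest pair, LPS and untreated replicate 2, was not over 0.1, so the numbers were not treated as a settled pairing, and values are given with and without the block. Alternatives were neqc (offset 16), median scaling, the normalized value table, probes detected on at least 3 arrays, the compared groups alone, array weights, trended and robust variances, other probes and leaving out each array. Scripts were tested on simulated data. Promoter sequences are from RefSeq (GRCm38.p6). Positions of the probes in the genome were not analysed here.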

Additional observations from a re-analysis of the deposited data

How the results depend on the processing

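The count of member genes past the threshold moved from 0 to 1 in LPS against untreated with neqc (Pde4a, log FC 0.64, adjusted p = 0.0422), with the replicate block (Adora2b) and with replicates 2 and 3 alone (Adora2b). It moved from 0 to 1 in LPS plus hBD3 against LPS with the replicate block (Adora2b). With the block together with neqc it was 2 and 1 in these comparisons. With the block together with median scaling, the value table or the filter on detected probes it was 1 in both comparisons. With the block, leaving out each of the 12 arrays gave 1 at the lowest and 1 at the highest in both. Alternatives with the block beyond the planned one, and replicates 2 and 3 alone, were chosen after seeing the data.

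Over the 12 blocked fits that each left out an array, the Adora2b difference ran from 0.95 to 1.09 for LPS against untreated (adjusted p 1.13e-05 to 0.000713) and from -0.69 to -0.56 in LPS plus hBD3 against LPS (adjusted p 0.00277 to 0.0434). Without the block, leaving out each array gave 0.64 to 1.34 and -0.97 to -0.25, and none passed. The replicate block changed no other call of a member or of the wider lists, and no alternative gave a call in the wider lists.

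Directions turned for values that passed the test in neither setting. Adora2b in hBD3 against untreated was 0.0136 with median scaling, with or without the block, 0.0125 in the blocked fit without untreated replicate 2, and -0.35 to 0.27 when each array was left out without the block. With array weights, Crem was -0.11 between LPS and untreated BMDM and 0.14 between LPS plus hBD3 and LPS. When each array was left out, it ran from -0.25 to 0.51 and from -0.52 to 0.25 without the block, and from -0.008 to 0.35 and from -0.35 to 0.0048 with it. The turns with the block came without LPS replicate 1. The undetected Crem probes gave -0.0513 and -0.02 between LPS and untreated BMDM and 0.0909 and 0.0798 between LPS plus hBD3 and LPS. The undetected Pde4a probes gave -0.17, -0.0589 and -0.0835 in the first of these comparisons, and 2 of them gave 0.17 and 0.0316 in the second. The causes were not tested. With a detection p threshold of 0.05, Pde4a was detected by any of its probes on 6 arrays from all 4 groups, so that its detection was no longer confined to LPS, and Ptger2 on 3. Signals at background limit what 5 of the 8 genes can show.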
